A study of Mus musculus with 6 samples.

Results

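Fgf21 and Trib3 are 2 of the 1834 genes in a table of mouse liver expression that compares an adeno-associated virus (AAV) carrying Ly6d with one carrying green fluorescent protein. They were picked by name as stress response genes linked to the transcription factor ATF4, with their difference between these libraries already known, so their levels are described here and not tested. Both groups are liver from mice on the same diet, and both received an AAV. The AAV-GFP group (3 libraries) has the genotype label WT, and the AAV-Ly6d group (3 libraries) has the genotype label Ly6d overexpression. Which diet this was, and the strain, age, sex, vector dose and vector promoter, are not stated in the sources used here. The labels also do not say that each library is from its own mouse, and a p-value then reflects only how much these samples vary, which may be technical variation. The values are normalised read counts, meaning reads divided by a size factor for each library.

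Fgf21 encodes a hormone that the liver releases into blood during fasting, amino acid shortage, mitochondrial stress and fatty liver, and that signals through FGF receptors with the coreceptor beta-klotho. Trib3 encodes a pseudokinase of the Tribbles family, which binds ATF4 and the kinase AKT and dampens both. In the integrated stress response, kinases that sense amino acid shortage, unfolded proteins, heme shortage or viral RNA phosphorylate the initiation factor eIF2. General translation then falls while ATF4 is translated, and ATF4 with partners of the C/EBP family switches on amino acid synthesis and transport genes together with Fgf21 and Trib3.

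Both genes lie on the minus strand and neither overlaps another annotated gene. Fgf21 (ENSMUSG00000030827) spans chr7:45613886-45615490 and has 1 annotated transcript with 3 exons and 951 bases. Trib3 (ENSMUSG00000032715) spans chr2:152337422-152344032, has 3 annotated transcripts, and its longest has 4 exons and 2026 bases (GRCm38, the mm10 assembly). Their promoters are shown because ATF4 is known to act through a composite C/EBP-ATF element. The element was searched as TGATGNAA on both strands in the 250 bases before each start site in RefSeq (GRCm38.p6). Capitals mark matches to this pattern, to the E-box CACGTG, or to a looser pattern, TGNTGCAA, that was chosen after the sequences were read and can overlap the first one.
Fgf21, chr7:45615491-45615740, minus strand: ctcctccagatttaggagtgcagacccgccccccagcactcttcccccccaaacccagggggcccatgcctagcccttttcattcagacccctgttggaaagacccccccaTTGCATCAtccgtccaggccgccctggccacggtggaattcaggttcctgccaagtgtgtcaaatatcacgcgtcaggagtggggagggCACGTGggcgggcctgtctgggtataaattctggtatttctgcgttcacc
Trib3, chr2:152344061-152344310, minus strand: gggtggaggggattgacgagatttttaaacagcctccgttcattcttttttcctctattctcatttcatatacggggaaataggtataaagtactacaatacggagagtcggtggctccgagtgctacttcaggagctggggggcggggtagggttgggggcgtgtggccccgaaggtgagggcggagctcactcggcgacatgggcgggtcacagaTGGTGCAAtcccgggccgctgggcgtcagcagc

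The Fgf21 window held TGATGNAA once, read on the opposite strand as TTGCATCA, with its first base at position -139, where -1 is the base just before the start site. An E-box, the core recognised by basic helix-loop-helix factors, followed at position -50. The Trib3 window held no TGATGNAA. It held the looser form TGGTGCAA at position -33. Of 32851 promoter windows of the same length, 3.45% held TGATGNAA, 2.72% held TGNTGCAA and 6.02% held CACGTG. Neither window held the cyclic AMP response element TGACGTCA (1.55% of all windows), the endoplasmic reticulum stress element (0.113%) or a perfect PPAR response element (0.0335%). These are matches of letters and not measured binding sites. Of 11 stress response genes from the lists described further on, 9 had a promoter entry, some with several windows. TGATGNAA was held by 3 of these 9 genes, and by 3 of their 13 windows. The 3 genes were Asns, Chac1 and Vldlr, and another Vldlr window held none. Their sites are printed in 30-base windows for comparison with that of Fgf21, each on its gene's strand.
Fgf21, chr7:45615611-45615640: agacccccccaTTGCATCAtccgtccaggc
Chac1, chr2:119351038-119351067: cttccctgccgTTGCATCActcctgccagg
Vldlr, chr19:27216809-27216838: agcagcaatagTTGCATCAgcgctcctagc
Asns, chr6:7693214-7693243: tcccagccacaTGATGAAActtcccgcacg
The core of Fgf21, Chac1 and Vldlr is the same 8 letters, and that of Asns is a variant on the other strand.

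Ly6d was first checked as the gene the vector carries. AAV-GFP replicates 1, 2 and 3 held 56.1, 9.68 and 182, and AAV-Ly6d replicates 1, 2 and 3 held 3181, 1799 and 3275, so each library fits its label (exact two-sided permutation test p = 0.1, the smallest that 3 against 3 allows). The reads behind the table summed to between 3248078 and 4359932 per library, over these 1834 genes only. One control library, AAV-GFP replicate 2, was far from its group along principal component 1, at -49.9 where replicates 1 and 3 had -15.4 and -18.1 and the AAV-Ly6d group 25.1 to 29.6. How the 1834 genes came to be in the table is not stated, and differences between the groups are common in it. Of 1780 tested genes, 43.9% passed in limma (Benjamini-Hochberg adjusted p under 0.05), of which 15.9% rose and 28.0% fell, as shares of all tested genes. The groups did not overlap for 84.5%, with AAV-Ly6d higher for 35.2% and lower for 49.3%. On reads recovered from the values, DESeq2 called 75.2% (28.3% higher and 46.9% lower in AAV-Ly6d) and edgeR 26.4% (9.04% higher and 17.4% lower). The limma share was 34.9% without AAV-GFP replicate 2 (16.3% higher and 18.6% lower), and limma called 0 genes without AAV-Ly6d replicate 1 (773 genes at an unadjusted p under 0.05), so no limma call given here holds without that library. Of 5 hepatocyte markers in the table (10 listed), 4 had positive log2 differences, against 700 of the 1780 tested genes. In limma 2 of the 5 rose, against 15.9% of tested genes. Their median transcript length was 1581 bases, and differences varied with transcript length, as shown further on. Apob, the exception, with a transcript of 13934 bases, reached 743167 in AAV-GFP replicate 2 against 186314 to 216089 in the other libraries.

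Fgf21 was higher in every AAV-Ly6d library than in any AAV-GFP library. Its normalised read count was 99.7, 20.4 and 174 in AAV-GFP replicates 1, 2 and 3, and 255, 462 and 362 in AAV-Ly6d replicates 1, 2 and 3. The groups did not overlap, but the lowest AAV-Ly6d library was only 1.47 times the highest AAV-GFP library, and AAV-GFP replicate 2 lay far below its group. AAV-GFP averaged 98.0 ± 76.7 and AAV-Ly6d averaged 359.8 ± 104 (SD, n = 3 each), 3.67 times as much. The difference between the group means of log2(value + 1) was 2.28, the 42nd largest of the 1780 tested genes. The added 1 makes changes of low genes look smaller. Averaging logs, however, gives the low AAV-GFP replicate 2 more weight than the ratio of means does. On recovered reads the log2 difference was 1.87 in both edgeR and DESeq2. The Fgf21 counts come from few reads. The 19 reads in AAV-GFP replicate 2 give an exact Poisson 95% interval of 12.3 to 31.9 for its value, and the 206 reads in AAV-GFP replicate 3 give 151 to 199, both covering counting error only. Within AAV-GFP the highest library was 8.50 times the lowest, far beyond counting error.

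Trib3 was also higher in every AAV-Ly6d library, by a smaller step. It held 112, 67.8 and 190 in AAV-GFP replicates 1, 2 and 3, and 238, 284 and 282 in AAV-Ly6d replicates 1, 2 and 3. AAV-GFP replicate 2 was again the lowest and AAV-GFP replicate 3 the highest of its group, and the lowest AAV-Ly6d library was 1.25 times the latter. AAV-GFP averaged 123 ± 61.8 and AAV-Ly6d averaged 268 ± 25.9 (SD, n = 3 each), 2.17 times as much, and the log2 difference was 1.23, the 148th largest. The AAV-Ly6d libraries lay close together, with a coefficient of variation of 9.65% against 50.1% in AAV-GFP. For Fgf21 the coefficients were 28.9% and 78.3%. Both genes therefore spread more widely among the AAV-GFP libraries than among the AAV-Ly6d libraries. For both members the groups did not overlap, as for 35.2% of all tested genes with AAV-Ly6d higher, so this trait is common in the table, and the members had been picked with it known.

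**Figure D1:**
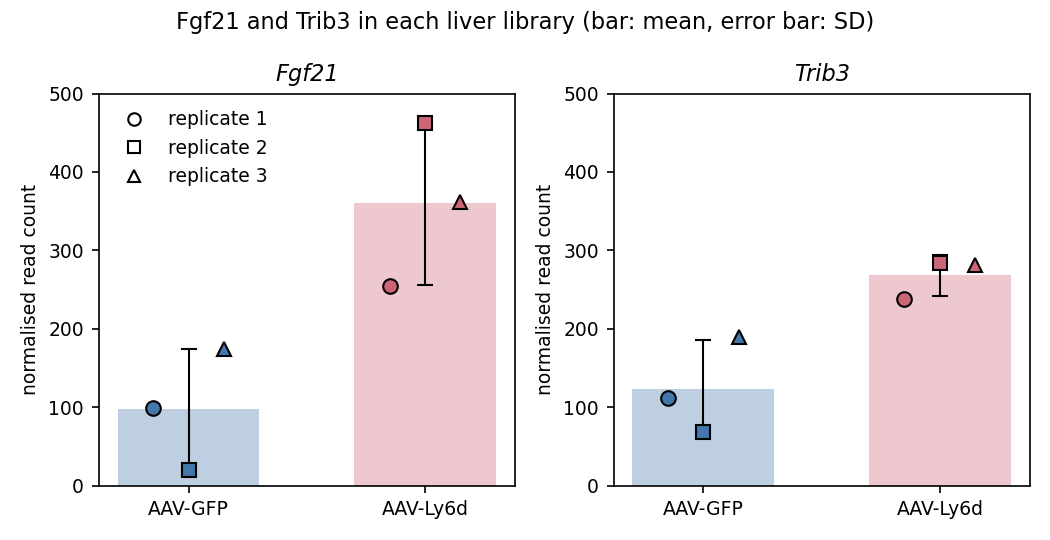
Normalised read counts (vertical axis, from 0) of Fgf21 and Trib3 in 3 AAV-GFP and 3 AAV-Ly6d liver libraries. Points are libraries, with the symbol giving the replicate number, bars are group means and error bars are SD (n = 3). The AAV-Ly6d libraries lie at 255 to 462 for Fgf21 and 238 to 284 for Trib3, above AAV-GFP at 20.4 to 174 and 67.8 to 190.

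The balance between Fgf21 and Trib3 was compared within each library. Fgf21 counts were 0.888, 0.302 and 0.916 times the Trib3 counts in AAV-GFP replicates 1, 2 and 3, and 1.07, 1.63 and 1.29 times in AAV-Ly6d replicates 1, 2 and 3. The ratio was below 1 in all 3 AAV-GFP libraries and above 1 in all 3 AAV-Ly6d libraries, but in AAV-GFP replicates 1 and 3 and AAV-Ly6d replicate 1 the counting intervals of Fgf21 and Trib3 overlapped, so the side of 1 was not resolved at this depth. Per kilobase of the longest transcript, a fairer comparison between genes, the mean level of Fgf21 was 103 in AAV-GFP against 60.9 for Trib3, and 378 against 132 in AAV-Ly6d. Fgf21 was thus the more abundant transcript per length in each group mean, but not in AAV-GFP replicate 2, where it held 21.5 per kilobase against 33.5 for Trib3. Both genes sat near the middle of the table: 52.5% of tested genes had a lower mean count than Fgf21 and 48.9% a lower mean than Trib3. In bulk liver, fewer cells of a type and less RNA per cell cannot be told apart.

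**Figure D2:**
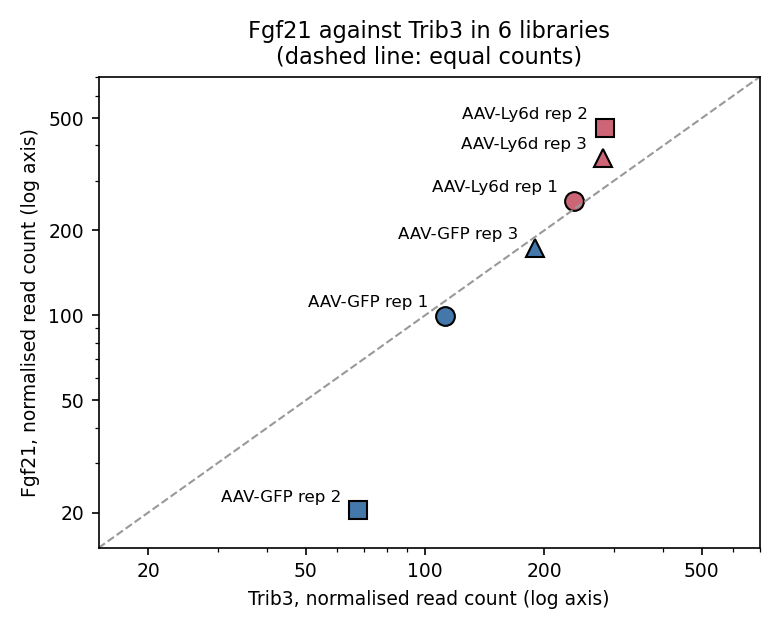
Normalised read count of Fgf21 (vertical, log axis) against Trib3 (horizontal, log axis) in each of the 6 libraries, with a dashed line at equal counts. The 3 AAV-Ly6d libraries lie above the line and the 3 AAV-GFP libraries below it, with AAV-GFP replicate 2 lowest for both genes (20.4 and 67.8).

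AAV-GFP replicate 2 carried much of the size of both differences. Without it the log2 difference was 1.40 for Fgf21 and 0.87 for Trib3, and the ratio of means was 2.63 and 1.77. Leaving out any one of the other libraries gave 2.08 to 2.92 for Fgf21 and 1.19 to 1.60 for Trib3. In that library Fgf21 lay 2.63 log2 units below the mean of the other AAV-GFP libraries, and Trib3 lay 1.10 below. Of all tested genes 0.899% lay further below than Fgf21 and 7.64% further below than Trib3. The same library was low in short transcripts and high in long ones. The median log2 difference between it and the other AAV-GFP libraries was -0.25 for the 445 tested genes with the shortest transcripts (up to 2247 bases), which include Fgf21 and Trib3, and 0.73 for the 445 with the longest (5564 bases or more). Among the former, 2.02% of genes lay below Fgf21 and 17.1% below Trib3. The difference between the groups also varied with transcript length. The median log2 difference, AAV-Ly6d minus AAV-GFP, was 0.59 for the 445 genes with the shortest transcripts and -0.87 for the 445 with the longest. In between, it was 0.36 for transcripts of 2255 to 3622 bases and -0.76 for those of 3623 to 5546 bases. The ranks of Fgf21 and Trib3 given above are over genes of all lengths. The part of transcript length in the Fgf21 and Trib3 values was not tested.

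Fgf21 and Trib3 followed each other across the libraries, with a Pearson r of 0.98 for log2(value + 1) over 6 libraries. Genes with the pattern most like theirs were sought among tested genes whose mean count reached 209, the median over that set. For Fgf21 these were Twnk, the mitochondrial DNA helicase gene (r = 0.993), Depp1 (0.992), Tmem259 (0.991), Atf5 (0.988) and Pabpc4, a poly(A)-binding protein gene (0.987). Of the other 1779 tested genes 14.7% had an r above 0.9 with Fgf21, so a high r is common here. Without AAV-GFP replicate 2 and AAV-Ly6d replicate 2, the libraries farthest from the median of Fgf21, these 5 values were 0.945 to 0.972. For Trib3 the genes were Eif4a-ps4 (0.989), Gss, the glutathione synthetase gene (0.987), Fgf21, Bcat2 (0.976) and Klhl21 (0.975), and 12.3% of the other tested genes had an r above 0.9. Eif4a-ps4 is a pseudogene that can share reads with its parent, so its value is uncertain. Without AAV-GFP replicates 1 and 2, the libraries farthest from the median of Trib3, the 5 values were 0.812 (Klhl21) to 0.970. All 6 libraries enter each r, and the low level of AAV-GFP replicate 2 is common to all of these genes.

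Bcat2, which encodes the mitochondrial branched-chain amino acid transaminase, is also the protein-coding gene next to Fgf21 on the side of lower coordinates, 24174 bases away. It held 268, 208 and 299 in AAV-GFP and 398, 419 and 401 in AAV-Ly6d. All 3 AAV-Ly6d libraries lay above all AAV-GFP libraries, with a log2 difference of 0.67. Klhl21, a ubiquitin ligase adaptor gene, held 419 to 1031 in AAV-GFP and 1318 to 1386 in AAV-Ly6d, a log2 difference of 0.94. Over all the genes named for their likeness, other than Fgf21, the log2 differences lay between 0.43 for Eif4a-ps4 and 1.53 for Atf5. Likeness over the same 6 libraries includes the difference between the groups, so these values are a description and carry no test.

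ATF4 and CHOP target genes other than Fgf21 and Trib3 mostly had positive differences, and the share that passed the test was near that of all tested genes. Of 43 listed genes 9 were in the table and tested, and 8 of these 9 had positive log2 differences, against 700 of all 1780 tested genes. In limma 4 of the 9 passed, against 43.9% of tested genes. Of these 3 rose and 1 fell, against 15.9% and 28.0% of tested genes, and 5 did not pass. For 6 of these 9 genes every AAV-Ly6d library lay above every AAV-GFP library, against 35.2% of tested genes, and for Vldlr every AAV-Ly6d library lay below. Of the 9, 5 rose with AAV-GFP replicate 2 left out, 1 with replicate 1 of that group out and 2 with replicate 3 out. With any single AAV-Ly6d library left out 0 rose. DESeq2 called 6 higher and 1 lower, against 28.3% and 46.9% of tested genes. For edgeR it was 2 and 1, against 9.04% and 17.4%. The median log2 difference was 0.86, against -0.67 over all tested genes. These 9 genes had a median transcript length of 2016 bases. For the 445 tested genes with the shortest transcripts, up to 2247 bases, the median log2 difference was 0.59. The background shares above are over genes of all lengths, and shares by length were not tested. The other 34 listed genes are not analysed here, so the counts are not shares of the pathway.

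The genes of this list that rose serve amino acid metabolism and cell death. Gpt2, the mitochondrial alanine transaminase gene, held 6888, 6593 and 8738 in AAV-GFP and 14316, 13923 and 11950 in AAV-Ly6d, without overlap. It rose by a log2 difference of 0.86 (SE 0.19, limma adjusted p = 0.0324). Cth, whose enzyme makes cysteine from cystathionine, held 12823, 6443 and 8699 in AAV-GFP and 15363, 17734 and 15511 in AAV-Ly6d. It rose by 0.85 (SE 0.26, limma adjusted p = 0.0418). Bbc3, which encodes the death-promoting protein PUMA and is a target of CHOP and of p53, held 40.6, 18.3 and 61.6 in AAV-GFP and 84.6, 153 and 119 in AAV-Ly6d. It rose by 1.66 (SE 0.47, limma adjusted p = 0.0405), and by 1.19 without AAV-GFP replicate 2. Each of these 3 genes was lowest in AAV-GFP replicate 2, as were Fgf21 and Trib3.

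Asns, the asparagine synthetase gene and a standard ATF4 target, shows how much 1 library can carry. It held 17.4, 7.53 and 40.5 in AAV-GFP and 53.5, 414 and 33.7 in AAV-Ly6d. AAV-Ly6d replicate 2 lay far above all others, while AAV-Ly6d replicate 3 fell inside the AAV-GFP range, so the groups overlapped. Its log2 difference of 2.30 (SE 0.95) did not pass (limma adjusted p = 0.0614), and it was 1.22 without AAV-Ly6d replicate 2. Fgf21 was also highest in AAV-Ly6d replicate 2, at 462, but only 1.82 times the lowest library of its group. Chac1, a glutathione-degrading enzyme gene named after its values were seen, held 37.7, 13.99 and 71.7 in AAV-GFP and 145, 70.8 and 68.5 in AAV-Ly6d. Its highest AAV-Ly6d library was replicate 1, and it did not pass (1.37, limma adjusted p = 0.0637).

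Vldlr, the very low density lipoprotein receptor gene and a known target of the stress kinase PERK through ATF4, went the other way. It held 144, 309 and 244 in AAV-GFP and 31.1, 37.9 and 40.3 in AAV-Ly6d. The highest AAV-Ly6d library was far below the lowest AAV-GFP library, and Vldlr fell by a log2 difference of -2.58 (SE 0.34, limma adjusted p = 0.0141). It carries the same 8-letter core as Fgf21 and Chac1 in a promoter window, while another of its windows held none. The remaining genes of the list had positive differences that did not pass in limma. They were Cebpg, a C/EBP partner of ATF4 (0.48, adjusted p = 0.0522), Sars, the seryl-tRNA synthetase gene (0.45, adjusted p = 0.0626), and Eif4ebp1, a repressor of translation initiation (1.13, adjusted p = 0.0626). For all 3 the groups did not overlap, and without AAV-GFP replicate 2 Cebpg (0.44, limma adjusted p = 0.0496) and Eif4ebp1 (0.50, limma adjusted p = 0.0434) passed.

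**Figure D3:**
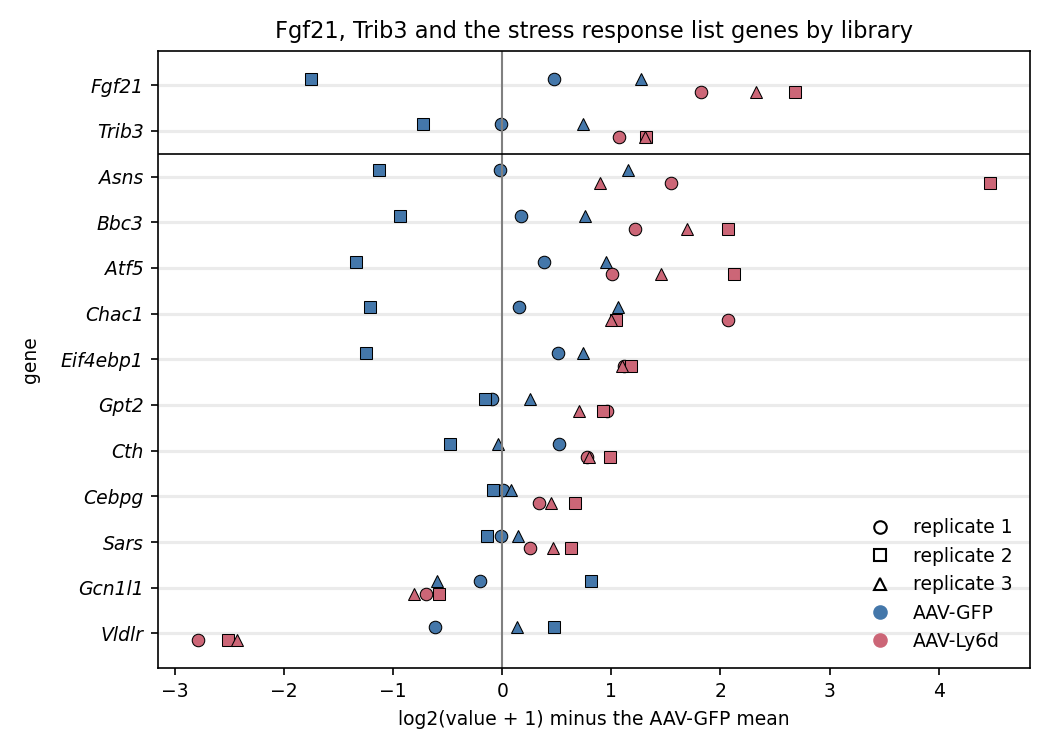
Each library's log2(value + 1) minus the AAV-GFP mean (horizontal axis) for Fgf21, Trib3, 9 ATF4 and CHOP target genes and 2 genes of the integrated stress response (vertical axis). Symbols give the replicate number and colours the group. AAV-GFP replicate 2 is the lowest library for Fgf21, Trib3 and the 9 list genes with a positive difference, and Vldlr is low in all 3 AAV-Ly6d libraries.

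Upstream parts of the stress response were thinly covered. Of 24 listed kinases and factors only Atf5 and Gcn1l1 were tested, and 0 of 2 passed in limma, with 1 at an unadjusted p under 0.05. Both passed in DESeq2 on recovered reads and 0 in edgeR. Of all tested genes limma called 43.9%, DESeq2 75.2% and edgeR 26.4%. Atf5, a transcription factor gene whose translation depends on eIF2 phosphorylation as that of ATF4 does, held 5080, 1533 and 7534 in AAV-GFP and 7822, 16969 and 10679 in AAV-Ly6d. The groups touched closely at 7534 and 7822 without overlapping, and the log2 difference of 1.53 (SE 0.56) did not pass (limma adjusted p = 0.0526). Without AAV-GFP replicate 2 it was 0.86. Gcn1l1, which activates the amino acid sensing kinase GCN2, held 1154, 2337 and 879 in AAV-GFP and 820, 894 and 759 in AAV-Ly6d. Those groups overlapped, and the log2 difference was -0.70 (limma adjusted p = 0.0809). The unfolded protein response list of ATF6 and XBP1 targets had 1 tested gene of 33, Selenos, which did not pass (0.68, limma adjusted p = 0.0604, and an unadjusted p under 0.05). Neither edgeR nor DESeq2 called it. The genes Atf4, Ddit3 (CHOP), Atf3, Hspa5 and Xbp1 are not analysed here.

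Stress genes with a positive difference shared their lowest library, and most shared their highest. Across the 11 tested genes of the target and kinase lists, 9 had a positive difference, and all 9 were lowest in AAV-GFP replicate 2. The other 2, Vldlr and Gcn1l1, were highest in that library. Among all 700 tested genes with a positive difference 72.0% were lowest in that library, so this trait is common as well. AAV-Ly6d replicate 2 was the highest library for 7 of the 9, and for 38.4% of the 700. Fgf21 and Trib3 were highest there too, although for Trib3 its 284 and the 282 of replicate 3 lay within counting error of each other (intervals of 252 to 319 and 249 to 318).

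The list of FGF21 receptors and signalling genes was thinly covered, and whether its tested genes responded to FGF21 in these livers was not tested. Of 22 listed receptors, coreceptors and signalling genes 2 were tested, Dusp6 and Egr1, while Klb and the FGF receptors are not analysed here. Dusp6, an ERK phosphatase induced by FGF signals, held 1329, 1031 and 1081 in AAV-GFP and 593, 614 and 806 in AAV-Ly6d, without overlap. It fell by a log2 difference of -0.78 (SE 0.21, limma adjusted p = 0.0382), but its adjusted p was 0.172 with the libraries rescaled by the median ratio. Egr1, an immediate early gene, held 239, 79.6 and 298 in AAV-GFP and 368, 439 and 505 in AAV-Ly6d. Its log2 difference of 1.28 did not pass (limma adjusted p = 0.0522), and it was 0.70 and past the threshold without AAV-GFP replicate 2 (adjusted p = 0.0436).

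Among 19 transcription factor genes known to act on Fgf21, Hnf4a and Tfeb were tested. Hnf4a, a factor that maintains hepatocyte identity, held 13911, 10375 and 11803 in AAV-GFP and 20638, 18243 and 17487 in AAV-Ly6d. It rose by 0.65 (SE 0.19, limma adjusted p = 0.0409). Tfeb, a lysosome and autophagy regulator, had a log2 difference of 1.13 that did not pass (limma adjusted p = 0.0637), or 0.55 without AAV-GFP replicate 2. PPAR-alpha, a fasting factor that acts on Fgf21, is not analysed as a gene here, but 6 of 34 listed targets were tested. In limma 5 rose, 0 fell and 1 did not pass, against 15.9% and 28.0% of tested genes that rose and fell. The median log2 difference was 0.84, against -0.67 over all tested genes. These 6 genes had a median transcript length of 3144.5 bases. For tested genes with transcripts of 2255 to 3622 bases the median log2 difference was 0.36. Cyp4a31, a fatty acid hydroxylase gene with close copies that can share reads, rose by 1.47 (adjusted p = 0.0312), from 321 to 677 in AAV-GFP to 975 to 1511 in AAV-Ly6d. Cyp4a10 rose by 0.94, and Cpt1a, the gatekeeper enzyme gene of mitochondrial fatty acid uptake, rose by 0.58. The peroxisomal enzyme gene Ehhadh rose by 0.84 and the carnitine acetyltransferase gene Crat by 0.60. Angptl4, a lipoprotein lipase inhibitor gene, had 0.83 and did not pass (limma adjusted p = 0.0625). Leaving out AAV-GFP replicate 1 or 2 left 2 rises in either case. Leaving out any of the other 4 libraries left 0.

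Genes of the Tribbles family and of insulin signalling moved in both directions. Of 30 listed Tribbles family and insulin signalling genes 6 were tested, of which 2 rose, 3 fell and 1 did not pass in limma, beside 15.9% of all tested genes that rose and 28.0% that fell. The median log2 difference was -0.78, near the -0.67 of all tested genes. These 6 genes had a median transcript length of 4552 bases. For tested genes with transcripts of 3623 to 5546 bases the median log2 difference was -0.76. Trib2, the related pseudokinase gene, held 59.0, 73.2 and 57.4 in AAV-GFP and 21.4, 26.9 and 53.3 in AAV-Ly6d, opposite in direction to Trib3. Its groups did not overlap, but its log2 difference of -0.98 did not pass (limma adjusted p = 0.0611). Pik3r1, the regulatory subunit gene of PI3 kinase, fell by -0.65, and Acaca, the acetyl-CoA carboxylase gene, fell by -0.92. With libraries rescaled by the median ratio neither Pik3r1 (adjusted p = 0.276) nor Acaca (adjusted p = 0.0718) passed. Igfbp1, a secreted protein gene that insulin represses, rose by 1.72 (adjusted p = 0.0365), with 804 to 1719 in AAV-GFP and 2636 to 7994 in AAV-Ly6d. Its highest library was again AAV-Ly6d replicate 2. Pck1, the gluconeogenic PEPCK gene, rose by 0.86 (adjusted p = 0.0498). Igfbp1 and Pck1 are also on the list of fasting genes described below, so their rises are counted in both lists. Leaving out AAV-GFP replicate 2 gave 2 rises and 1 fall, and leaving out any other library gave 0 of each.

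Oxidative and mitochondrial stress genes were few. Osgin1, an NRF2 target, rose by 1.20 (limma adjusted p = 0.0409), and Hmox1, which degrades heme, had a log2 difference of 1.73 that did not pass (adjusted p = 0.0625). Hmox1 held 378, 53.8 and 332 in AAV-GFP and 410, 1130 and 542 in AAV-Ly6d, with the same lowest and highest libraries as Fgf21. These were 2 of 19 listed NRF2 targets, and Osgin1 was not called without any one of the 6 libraries. Of 14 mitochondrial stress genes Clpp (0.54, limma adjusted p = 0.0626) and Dnaja3 (0.59, limma adjusted p = 0.0637) were tested. In limma 0 passed, with 2 at an unadjusted p under 0.05, and 0 passed in edgeR and DESeq2. Of all tested genes limma called 43.9%, edgeR 26.4% and DESeq2 75.2%.

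The list of fasting genes for glucose and amino acids, states in which Fgf21 is induced, was the most fully covered. Of 21 listed genes 14 were tested, and in limma 13 rose, 0 fell and 1 did not pass, where 15.9% of all tested genes rose and 28.0% fell. The median log2 difference was 0.89, against -0.67 over all tested genes. These 14 genes had a median transcript length of 2394 bases. For tested genes with transcripts of 2255 to 3622 bases the median log2 difference was 0.36. The shares that rose or fell among genes of such lengths were not tested. The list was also chosen with earlier results of these data known. Its rises include Igfbp1 and Pck1, already counted in the Tribbles and insulin signalling list. Fkbp5, a glucocorticoid-induced chaperone gene, held 462, 422 and 1100 in AAV-GFP and 3436, 1943 and 1740 in AAV-Ly6d. It rose by 1.92 (SE 0.41, limma adjusted p = 0.0324), and its highest library was AAV-Ly6d replicate 1, not replicate 2 as for Fgf21. Tat, the tyrosine transaminase gene, rose by 1.19, Sds, the serine dehydratase gene, by 1.11 and Got1, the cytosolic aspartate transaminase gene, by 1.01. The urea cycle genes Asl and Arg1 rose by 0.92 and 0.78, and Tdo2, which degrades tryptophan, by 0.71. Leaving out AAV-GFP replicate 2 left 11 rises. With replicate 1 of that group out 1 was left, with replicate 3 out 2 were left, and with an AAV-Ly6d library out 0 were left.

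**Figure D4:**
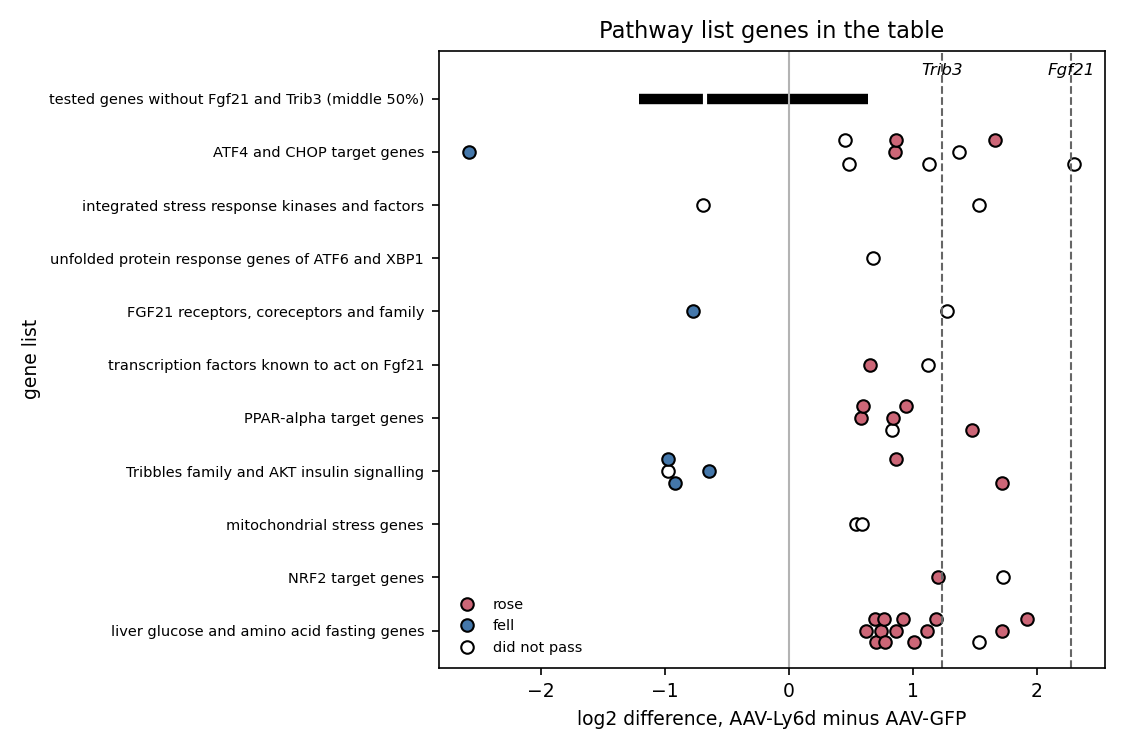
Log2 difference between AAV-Ly6d and AAV-GFP (horizontal axis) of each tested gene in 10 pathway lists (vertical axis, points offset to stay visible), with filled points for genes that rose or fell in limma and open points for genes that did not pass. Dashed lines mark Fgf21 (2.28) and Trib3 (1.23), and the thick bar spans the middle 50% of the other tested genes, with a gap at their median. Most list genes lie to the right of that median, and Vldlr lies farthest left.

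Markers of other liver cells differed between the same libraries. All 7 tested endothelial markers (12 listed) fell, against 28.0% of all tested genes, and their summed counts were 6502 to 10713 in AAV-GFP and 2359 to 2737 in AAV-Ly6d. Of 8 stellate and fibroblast markers (12 listed) 6 fell, with sums of 3560 to 5219 and 1101 to 2476. The endothelial markers had a median log2 difference of -1.81 and a median transcript length of 8228 bases. For the stellate and fibroblast markers these were -1.45 and 5349.5 bases. For tested genes with transcripts of 5564 bases or more the median log2 difference was -0.87, and for 3623 to 5546 bases it was -0.76. The shares that fell among genes of such lengths were not tested. The single bile duct marker in the table, Sox9 (8 listed), rose by 1.38 (limma adjusted p = 0.0351), and of the 2 adipocyte markers present (8 listed) the defining one, Retn, was at 0 to 23.6 in AAV-GFP and 0 in AAV-Ly6d. Car3, which hepatocytes also express, overlapped between the groups and did not pass (-1.32). Of the 5 erythroid markers 2 fell, against 28.0% of all tested genes, with sums of 2708 to 5863 and 1898 to 2850. Of these 5 markers 0 had a positive log2 difference, and the median was -1.17. Their median transcript length was 699 bases, and for tested genes with transcripts up to 2247 bases the median log2 difference was 0.59. The listed macrophage, lymphocyte, neutrophil, pancreatic acinar and skeletal muscle markers are not analysed here. The part of these marker differences in the Fgf21 and Trib3 values was not tested.

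The adjusted p-values above are over the tested genes of the table. With adjustment over all 55450 annotated genes, limma called 1 gene and 0 genes of the pathway lists, so no list call given here passed by that test. Under that adjustment, in an alternative chosen after seeing the data, DESeq2 on recovered reads called 124 genes (6.97% of those tested, 2.36% higher and 4.61% lower in AAV-Ly6d), among them Gpt2 and Vldlr of the ATF4 and CHOP list, and Cyp4a31, Fkbp5 and Igfbp1 of the others.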

How the data were processed

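Liver RNA of 6 libraries was sequenced by the authors. Per the submitters' processing notes, Bowtie 0.12.2 and mm10 were used, with no role stated. How reads were counted, on which annotation and strand setting, and how the 1834 genes were picked is not stated. The deposited values are a signal, read counts that appear divided by a size factor per library: within each deposited column 100% of values were whole multiples (within 0.001) of one step, 0.844 to 1.09. Recovered reads served the count-based alternatives.

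Symbols (1833 of 1834 matched), coordinates and transcript lengths come from GENCODE M21 (GRCm38), and promoters from RefSeq (GRCm38.p6). Fgf21, Trib3 and the 10 pathway and 11 marker lists were chosen with earlier results of these data known. The 1780 genes with values of 1 or more in 3 or more libraries, Fgf21 and Trib3 among them, were fitted (54 were not) with limma 3.58.1 (R 4.3.3, eBayes with trend) on log2(value + 1) without covariates. Rose and fell mean a Benjamini-Hochberg adjusted p under 0.05. The text names Ly6d, of each list all tested members or, beyond 8, the 8 with the smallest p, and the 5 genes most like each of Fgf21 and Trib3, except 1 gene that is not reported here. Alternatives were other pseudocounts, filters, scaling, single libraries left out, a replicate block, edgeR 4.0.16 and DESeq2 1.42.0.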

Additional observations from a re-analysis of the deposited data

How the results depend on the processing

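Fgf21 and Trib3 stayed higher in AAV-Ly6d under all alternatives tried, with log2 differences of 1.40 to 2.92 and 0.87 to 1.60 when single libraries were left out, 2.61 and 1.57 after rescaling by the median ratio (which moved the median of the tested genes from -0.67 to -0.33), and 1.87 and 1.11 in edgeR. Ly6d ranged from 4.70 to 6.75 when single libraries were left out.

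The counts of calls were less stable. With single libraries left out, limma called 0 to 607 genes of the table against 782, 0 to 6 ATF4 and CHOP targets against 4, and 0 to 17 genes of the other lists against 24. The 0 came without AAV-Ly6d replicate 1 for all 3 counts (773 genes, 7 targets and 22 other list genes at an unadjusted p under 0.05), and also without AAV-Ly6d replicates 2 or 3 for the other lists. Without AAV-GFP replicate 1 the counts were 134, 2 and 3, and without AAV-GFP replicate 3 they were 139, 3 and 2. Without AAV-Ly6d replicate 2 they were 104, 1 and 0, and without AAV-Ly6d replicate 3 they were 19, 1 and 0. The cause was not tested. DESeq2 called 1338 genes and 7 targets, and edgeR called 470 genes and 14 of the other list genes. After rescaling, 7 targets were called. Without the trend, limma called 10 of the other list genes. Adjusted over all annotated genes, limma called 1 gene, 0 targets and 0 others, and DESeq2, an alternative chosen after seeing the data, called 124, 2 and 3.

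With the replicate number as a block, limma called 48 genes, 1 target and 0 others. The numbers are shared labels only: same-numbered libraries did not deviate together (r of -0.02, -0.05 and -0.06), and no library correlated best with its own number. Depth limits single values of low genes such as Fgf21, with 19 reads in AAV-GFP replicate 2.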
